A study of Mus musculus with 2 samples.

Results

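The genes described here are 8 transcription factor genes that mark regions of the jaw and palate mesenchyme, chosen by name: Osr2, Osr1, Barx1, Barx2, Gsc, Pou3f3, Hand2 and Hand1. All 8 were found among the 43346 mouse genes of the deposited tables. The tables hold sequencing of total RNA from the facial prominence, the tissue of the developing face and jaws, in 2 libraries. Both libraries came from B6NCrl mice at embryonic day 15.5, with no treatment or altered allele named in the labels. Replicate 1 pooled tissue of 78 embryos and replicate 2 of 62 embryos, male and female mixed, and the labels give both the same donor entry. There was 1 group only, so the data give levels and the spread between 2 pools, and no test between conditions could be made. Because whole tissue was pooled, a gene at a low level in every cell and a gene at a high level in few cells cannot be told apart, nor can fewer cells of a type and less RNA per cell.

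The facial mesenchyme derives largely from cranial neural crest, and its cells take regional identities from combinations of transcription factors. In the lower jaw, the signal endothelin 1 acts through its receptor Ednra on Dlx5 and Dlx6 and then on Hand2, Hand1 and Gsc, which pattern the ventral jaw, while Pou3f3 marks the upper jaw part of the first arch under Dlx1 and Dlx2. Osr2 is needed for growth of the palatal shelves and keeps mouse teeth in a single row, and Barx1 marks the mesenchyme of the future molars. These genes act earlier in arch patterning as well as later, and embryonic day 15.5 falls after the palatal shelves of the mouse meet.

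Expected counts on mouse genes summed to 36048494 in replicate 1 and 36774513 in replicate 2. Markers of mesenchyme were present as the tissue label implies, with 9 of 9 at 1 TPM (transcript abundance corrected for transcript length and library depth) or more in both libraries, and their summed level was 6279 TPM in replicate 1 and 5915 TPM in replicate 2. The tissue also held other cell types: 7 of 7 epithelial markers (2181 and 2023 TPM summed in replicates 1 and 2) and 7 of 7 skeletal muscle markers (2698 and 2057 TPM) passed the same threshold. The name mesenchyme factors therefore describes where these genes are known to act, and the cell type behind each value was not measured.

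The members spanned a 209-fold range of levels. Both Osr genes stood near 100 TPM, Barx1 and Gsc above 10 TPM, Barx2, Pou3f3 and Hand2 between 1.94 and 6.69 TPM in single libraries, and Hand1 at or below 0.55 TPM. With a threshold of 1 TPM in both libraries, 7 of the 8 members were detected, against 65.4% of 21474 coding genes. The median of the 8 was 8.35 ± 1.02 TPM (SD, n = 2), and that of the 14052 detected coding genes was 18.1 ± 0.0424 TPM. Osr2 and Osr1 together made up 82.2% of the summed TPM of the 8 genes in replicate 1 and 85.9% in replicate 2.

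**Figure D1:**
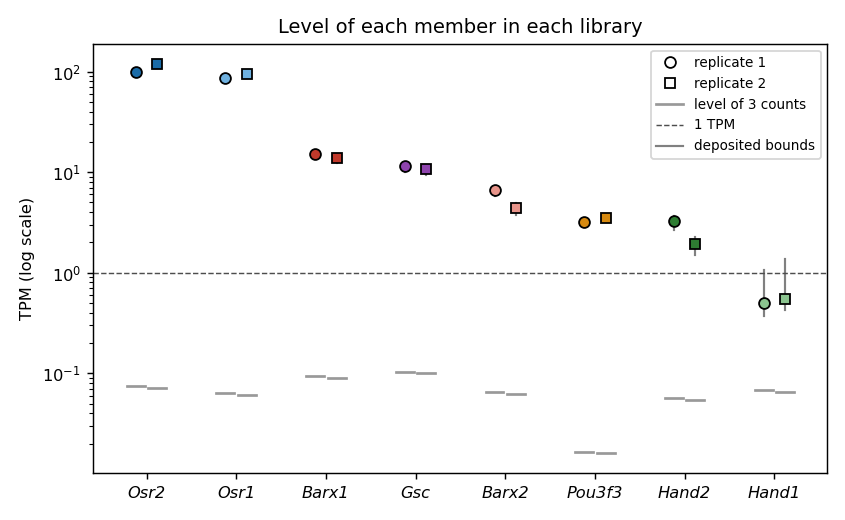
TPM of each member (log axis) in replicate 1 (circles) and replicate 2 (squares), with the authors' deposited credibility bounds as thin lines, the level that 3 counts would give as short grey bars and 1 TPM as a dashed line. Both Osr genes lie between 85.7 and 119.8 TPM, and Hand1 is the single member whose 2 values, 0.50 and 0.55 TPM, lie under the dashed line.

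Osr2, a zinc finger gene of the odd-skipped family that the secondary palate requires, was the most abundant member. It stood at 99.9 TPM in replicate 1 (3996 counts) and 119.8 TPM in replicate 2 (4998 counts), a mean of 109.8 ± 14.1 TPM (SD, n = 2). That mean was higher than that of 90.4% of detected coding genes and ranked 1356th among all coding genes. Osr2 lies on chromosome 15 from 35296098 to 35303305 on the plus strand (GRCm38, GENCODE M21), where M21 annotates 5 transcript models, while the authors' table holds 1, of 1723 nucleotides. Reads from the other models could reach the count only through exons shared with that one.

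Osr1, the paralog of Osr2, known from intermediate mesoderm and kidney as well as from the face, stood at 85.7 TPM in replicate 1 (4037 counts) and 94.4 TPM in replicate 2 (4635 counts). Its mean of 90.1 ± 6.11 TPM (SD, n = 2) was above 87.9% of detected coding genes. The single Osr1 transcript in the table spans 9574441 to 9581500 on chromosome 12, plus strand. Kidney and intermediate mesoderm markers were mostly low beside it: Pax2, Pax8, Wt1, Lhx1 and Sall1 averaged 0.0400 to 0.810 TPM, and the other two of the 7, Eya1 at 30.4 TPM in replicate 1 and 29.9 TPM in replicate 2 and Six2 at 6.61 and 8.38 TPM, are also expressed in facial mesenchyme.

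Osr2 exceeded Osr1 in both libraries, by 1.16-fold in replicate 1 (exact 95% binomial interval 1.11 to 1.22) and by 1.27-fold in replicate 2 (1.22 to 1.32). These intervals, here and below, cover counting error only. The deposited bounds of the genes did not overlap in either library: 94.5 to 100.6 TPM for Osr2 and 81.2 to 86.3 TPM for Osr1 in replicate 1, for example. The level of confidence of those bounds is not given in the sources used here. The order of the genes was the same in each pool, and their mean difference was 19.8 TPM beside an SD of 14.1 TPM for Osr2.

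**Figure D2:**
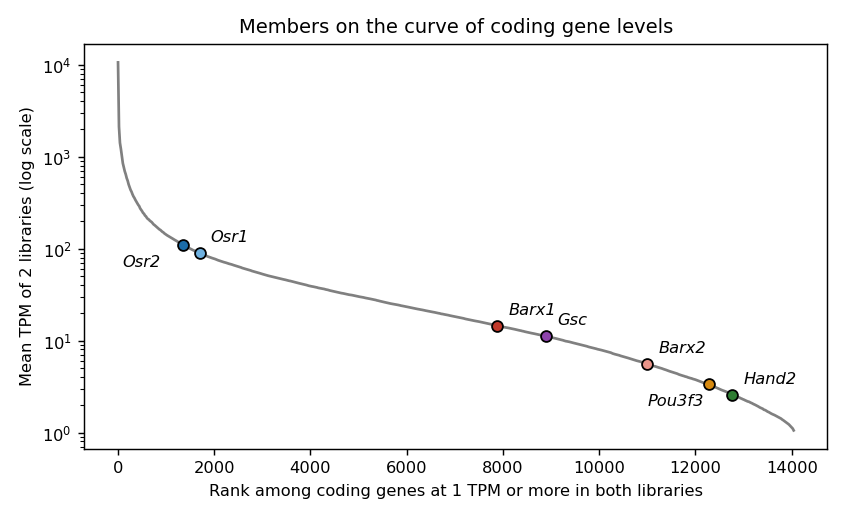
Mean TPM of the 2 libraries (log axis) against rank for coding genes detected in both, with the 7 detected members marked. Osr2 and Osr1 sit on the upper shoulder of the curve, at the 90.4 and 87.9 percentiles, Barx1 and Gsc near its middle and Barx2, Pou3f3 and Hand2 in its lower part.

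Barx1, a Bar-class homeobox gene of molar tooth and stomach mesenchyme, was the highest of the 4 homeobox members. It stood at 15.1 TPM in replicate 1 (483 counts) and 13.9 TPM in replicate 2 (464 counts), a mean of 14.5 ± 0.841 TPM (SD, n = 2) and above 43.9% of detected coding genes. It lies on chromosome 13 from 48662998 to 48666507 on the plus strand. Barx2, its paralog, known from oral and other ectoderm and from muscle precursors, stood lower, at 6.69 TPM in replicate 1 (308 counts) and 4.41 TPM in replicate 2 (212 counts), a mean of 5.55 ± 1.61 TPM. Barx2 spans 31846044 to 31913462 on chromosome 9, minus strand, the longest locus of the 8.

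Barx1 was 2.25-fold above Barx2 in replicate 1 (interval 1.95 to 2.61) and 3.15-fold in replicate 2 (2.67 to 3.72). These intervals do not overlap, so the pools differed in this ratio by more than counting error. Barx1 itself differed little between pools, and the value that changed was that of Barx2.

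Gsc, the paired-type homeobox gene goosecoid, required for the lower jaw and middle ear, stood at 11.5 TPM in replicate 1 (330 counts) and 10.85 TPM in replicate 2 (326 counts), a mean of 11.2 ± 0.431 TPM (SD, n = 2) on a locus of 3 exons at chromosome 12, 104471209 to 104473330, minus strand. It was the member that differed least between the libraries, with a log2 ratio of -0.08 (replicate 2 over replicate 1). Both of its values lay under both values of Barx1 and above both values of Barx2.

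Pou3f3, a POU homeobox gene of the upper jaw mesenchyme that is also strong in brain and kidney, stood at 3.16 TPM in replicate 1 (570 counts) and 3.50 TPM in replicate 2 (657 counts), a mean of 3.33 ± 0.240 TPM (SD, n = 2). Its counts were larger than those of Barx1 although its level was lower, because its transcript, a single exon of 7409 nucleotides at chromosome 1, 42695768 to 42703176, plus strand, is the longest of the 8. As the gene has no intron, spliced and unspliced RNA cannot be told apart for it. Within its class, Pou3f4 stood at 8.04 ± 1.89 TPM, Pou3f1 at 3.70 ± 0.325 TPM and Pou3f2 at 0.155 ± 0.106 TPM (SD, n = 2), so Pou3f3 held 19.1% of class III POU TPM in replicate 1 and 25.2% in replicate 2. Of the 13 other POU genes 6 were detected in both libraries, and the 3 highest were Pou2f3 at 9.53 ± 0.820 TPM, Pou2f1 at 8.71 ± 0.431 TPM and Pou3f4. All 7 neuron markers, in turn, were detected, with a summed level of 107.9 TPM in replicate 1 and 114.3 TPM in replicate 2, and what part nerve tissue had in the Pou3f3 level was not tested.

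Hand2, a basic helix-loop-helix (bHLH) gene of the lower jaw, tongue, limb and heart, stood at 3.23 TPM in replicate 1 (169.93 counts) and 1.94 TPM in replicate 2 (106.52 counts), a mean of 2.59 ± 0.912 TPM (SD, n = 2). It lies on chromosome 8 from 57320983 to 57324633, plus strand. Its 2 values straddled neighbouring Pou3f3, above 3.16 TPM in replicate 1 and below 3.50 TPM in replicate 2, so the order of these members was not settled by the data. The libraries of every other pair of neighbours in the order of levels did not overlap.

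Hand1, the related gene of the jaw midline, heart and placenta, was near the limit of what was measured, with 22 counts in replicate 1 (0.50 TPM) and 25 counts in replicate 2 (0.55 TPM). A single count on it was worth 0.0228 TPM in replicate 1 and 0.0219 TPM in replicate 2, so the gene was above a floor of 3 counts in both. The authors' posterior mean, 0.770 ± 0.0990 TPM, was higher than their TPM of 0.525 ± 0.0354 (SD, n = 2), and the upper deposited bound, 1.07 TPM in replicate 1 and 1.36 TPM in replicate 2, passed 1 TPM. Hand2 exceeded Hand1 by 6.46-fold in replicate 1 (interval 4.12 to 10.5) and 3.53-fold in replicate 2 (2.28 to 5.74), and by 4.50-fold and 2.24-fold in posterior means.

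Hand1, on chromosome 11 from 57828705 to 57832818, minus strand, was the only member with more than 1 transcript in the table. The longest, of 1904 nucleotides, took 74.5% of the gene's TPM in replicate 1 and 68.8% in replicate 2, and the next, of 1806 nucleotides, took 25.6% and 31.2%. The shortest, a model of 354 nucleotides, was listed at 0 in both libraries. By posterior means it took 22.4% in replicate 1 and 32.6% in replicate 2, and the longest took 44.4% and 40.4%. With 22 and 25 counts in all, the shares of these transcripts are poorly fixed.

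The 8 bHLH genes listed as partners of the Hand proteins were all detected (median 47.7 ± 5.13 TPM). Most of them were far more abundant than Hand2 and Hand1. Hand proteins bind DNA with E proteins, whose genes Tcf4, Tcf3 and Tcf12 stood at 281 ± 25.9, 107 ± 0.658 and 84.3 ± 4.91 TPM (SD, n = 2). Together the E protein genes reached 133 times the summed TPM of Hand2 and Hand1 in replicate 1 and 181 times in replicate 2. Twist2 and Twist1, bHLH genes of the mesenchyme that can also pair with Hand proteins, stood at 63.0 ± 9.34 and 32.3 ± 0.926 TPM, and their sum was 27.5 times that of the Hand genes in replicate 1 and 35.4 times in replicate 2. The tendon and mesoderm genes Scx, Tcf15 and Tcf21 were lower, at 9.67 ± 1.99, 4.79 ± 0.651 and 2.55 ± 0.226 TPM. The mean of Tcf21 lay beside that of Hand2 (2.59 ± 0.912 TPM). All 4 Id genes, whose products hold E proteins off DNA, were detected, with Id3 at 347 ± 0.615, Id2 at 225 ± 2.86, Id1 at 120.1 ± 8.09 and Id4 at 27.7 ± 0.827 TPM.

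**Figure D3:**
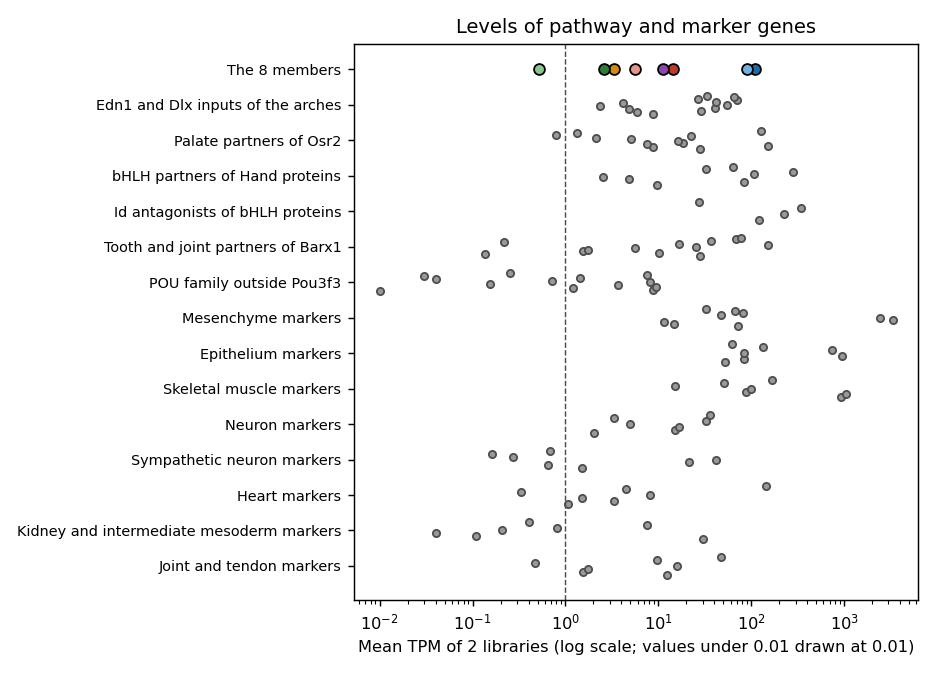
Mean TPM over the 2 libraries (log axis) of the 8 members (coloured, top line) and of each gene in 14 lists (grey), with 1 TPM as a dashed line. The Id and bHLH partner genes lie to the right of Hand2 (2.59 TPM) or beside it, and POU, sympathetic, heart and kidney genes spread to both sides of 1 TPM.

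The endothelin pathway and Dlx genes listed as inputs of the arches were all detected, 13 of 13 with a median of 28.7 ± 1.03 TPM. Not all of them act upstream of Hand2 and Gsc: of the Dlx genes, Dlx5 and Dlx6 were given above as doing so, and Dlx1 and Dlx2 as acting on Pou3f3. The ligand gene Edn1 stood at 4.15 ± 0.0849 TPM, its processing enzyme Ece1 at 55.5 ± 4.28 TPM and its receptor Ednra at 41.3 ± 4.91 TPM (SD, n = 2). The signalling genes below the receptor followed at 70.8 ± 0.997 TPM for Gna11, 26.8 ± 0.0495 TPM for Gnaq and 33.8 ± 0.262 TPM for Plcb3, and the transcription factor gene Mef2c, a known target, at 64.8 ± 4.21 TPM. Among the Dlx homeobox genes, Dlx5 (40.5 ± 4.41 TPM) and Dlx3 (28.7 ± 1.03 TPM) exceeded all members but the Osr genes. Dlx1, Dlx2, Dlx4 and Dlx6 ranged from 2.37 to 8.79 TPM, below Gsc. None of the 13 differed by more than 1.5-fold between the libraries.

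Of the palate genes listed as partners of Osr2, 10 of 12 were detected, with a median of 12.5 ± 0.732 TPM. Msx1, a homeobox gene of palate and tooth mesenchyme, stood at 152 ± 9.16 TPM and Wnt5a, a Wnt ligand gene, at 128 ± 4.94 TPM (SD, n = 2), the list's 2 genes above Osr2. Bmp4 (28.0 ± 1.46 TPM), Shox2 (22.4 ± 1.78 TPM), Fgf10 (8.87 ± 0.601 TPM) and Shh (2.12 ± 0.417 TPM) were lower. Among the semaphorin genes, Sema3a stood at 18.4 ± 0.240, Sema3d at 16.2 ± 0.863 and Sema3e at 5.09 ± 0.212 TPM. Pax9, which acts upstream of Osr2 in the mouse palate, stood at 6.08 TPM in replicate 1 and 9.18 TPM in replicate 2, and Tbx22 at 0.910 and 1.74 TPM. These were the list's 2 genes past 1.5-fold, both higher in replicate 2. Among the 18318 genes that reached 10 counts in each library, 4.78% were past it in that direction. Pax9 was just past the limit, at 1.51-fold. Osr2 was also higher in replicate 2 but inside the limit (log2 ratio 0.26). Sim2, at 0.795 ± 0.0778 TPM, was not detected by the threshold.

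Of the genes listed with Barx1 for tooth and joint, 11 of 13 were detected, with a median of 16.8 ± 1.77 TPM and with Msx1 and Trps1 (77.1 ± 10.4 TPM) the highest. None passed 1.5-fold between libraries among the 11 with enough counts, against 9.08% of all genes with enough counts. The epithelial signal gene Fgf8, which induces Barx1 in the early jaw, had 3 counts in each library, at the floor. Joint genes were low, with Gdf5 at 1.54 ± 0.240 and Gdf6 at 1.76 ± 0.0849 TPM, while Nkx3-2, needed for the jaw joint in zebrafish, had 6 counts in replicate 1 and 12 in replicate 2. The joint and tendon markers were led by Tnmd at 46.9 ± 0.834, Mkx at 15.8 ± 0.665 and Erg at 12.6 ± 1.87 TPM (SD, n = 2).

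Between the 2 pools, 4 members were higher in replicate 2 and 4 lower, on expected counts scaled by TMM, which sets the ratio of most genes near 1. Of the 8, 2 were past 1.5-fold, Hand2 and Barx2, both lower in replicate 2. Among the 18318 genes that reached 10 counts in each library, 9.08% were past it in either direction, 4.31% as lower and 4.78% as higher in replicate 2. Hand2 was 1.64-fold lower in replicate 2 (log2 ratio -0.72, exact 95% binomial interval -1.09 to -0.37). Barx2 was 1.51-fold lower (log2 ratio -0.59, interval -0.86 to -0.34), just past the limit, and was inside it with library totals in place of TMM (log2 ratio -0.56), an alternative added after the data were seen. Every member had the same direction with DESeq2 size factors and with library totals. With spike-in scaling every member was lower in replicate 2, with log2 ratios from -1.36 (Hand2) to -0.39 (Osr2). That scaling moved the median of all genes by -0.65. Relative to that median the directions were again those of TMM. This is no separate check, since a change of scaling shifts the ratios of all genes by nearly the same amount. Among genes of 100 to below 1000 mean counts, a range chosen after these values were seen, 3.7% were past 1.5-fold as lower in replicate 2 with TMM. Each pool is represented here by 1 library, so these ratios compare 2 libraries and carry no test.

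The other 6 members were within 1.5-fold. Osr2 was higher in replicate 2 by a log2 ratio of 0.26 (interval 0.20 to 0.32) and Osr1 by 0.14 (0.08 to 0.20), both beyond counting error. Of all tested genes, whatever their counts, 25.5% differed by more than Osr2 and 44.2% by more than Osr1. The intervals of Barx1 (-0.12, from -0.30 to 0.07), Gsc (-0.08, from -0.30 to 0.15), Pou3f3 (0.15, from -0.02 to 0.31) and Hand1 (0.12, from -0.76 to 1.02) held 0. Across all tested genes the median size of the log2 ratio was 0.12, and across the 8 members it was 0.14.

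**Figure D4:**
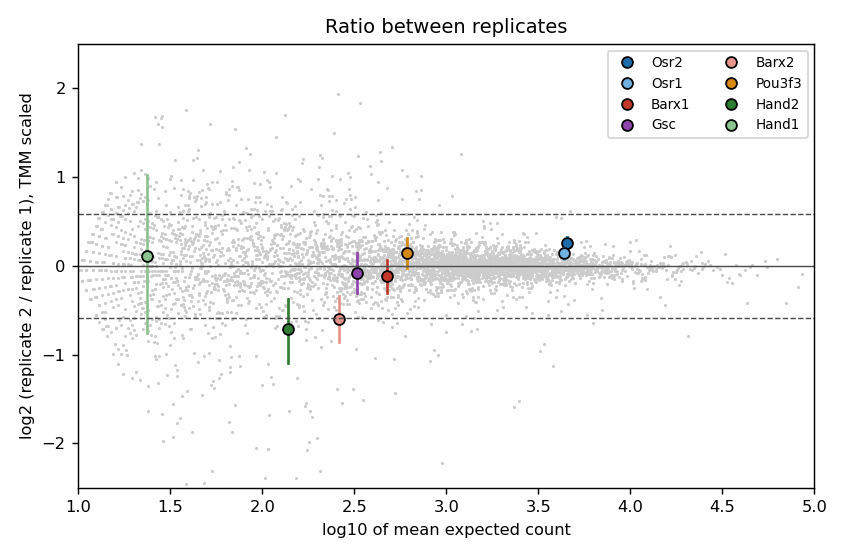
Log2 ratio of replicate 2 over replicate 1 after TMM scaling against log10 of the mean expected count, for 1 in 4 of the genes that reached 10 counts in each library (grey; points beyond the axis limits are not drawn) and for the members, whose vertical lines are exact 95% binomial intervals. Dashed lines mark 1.5-fold; Hand2 at -0.72 and Barx2 at -0.59 lie below the lower one, and the other 6 members lie between the lines.

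Markers of some cell types were also lower in replicate 2, few of them past 1.5-fold, against the 4.31% of all tested genes given above. All 7 skeletal muscle markers had log2 ratios below 0, from -0.55 to -0.21 with a median of -0.37, and 0 of the 7 were past 1.5-fold. Among them, Actc1, Acta1 and Myog, the 3 highest, stood at 1038 ± 204, 917 ± 164 and 169 ± 32.5 TPM (SD, n = 2). Of the 6 heart markers with enough counts 5 were lower (median -0.43) and 1, Myl7, was past 1.5-fold (log2 ratio -0.70), with summed levels of 187.4 TPM in replicate 1 and 135.1 TPM in replicate 2 and led by Tnnt2 at 143 ± 34.0 TPM, Nkx2-5 at 8.04 ± 1.56 TPM and Tnni3 at 4.49 ± 0.240 TPM. Tnnt2 is also made in immature skeletal muscle. Epithelial markers were mixed, with 3 of 7 lower and ratios from -0.22 to 0.44, among them Krt14 at 946 ± 83.6, Krt5 at 738 ± 78.4 and Krt8 at 135 ± 28.6 TPM. Of the 9 mesenchyme markers 3 were lower (median log2 ratio 0.03), and of the 7 neuron markers 0 were lower (median 0.11). Sympathetic neurons also express Hand2. Their 7 markers, 3 of which reached 1 TPM in both libraries, summed to 63.0 TPM in replicate 1 and 69.2 TPM in replicate 2. Gata3 (40.7 TPM in replicate 1 and 42.5 TPM in replicate 2) and Gata2 (18.5 and 23.8 TPM), which are expressed in other tissues of the face, made up most of that sum. The noradrenaline synthesis genes went the other way: Th stood at 0.93 TPM in replicate 1 (36 counts) and 0.45 TPM in replicate 2 (20 counts), with a log2 ratio of -0.84 that was past 1.5-fold like that of Hand2, and Dbh at 0.86 TPM (30 counts) and 0.43 TPM (27 counts), with a log2 ratio of -0.20. For Dbh the TPM fell far more than the counts, on which the ratio rests. The factor gene Phox2a stood at 0.275 ± 0.00707 TPM (SD, n = 2). No marker named here was at 0. The part of these cell types in the ratios of Hand2 and Barx2 was not tested.

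Most members shared no read-length sequence with another gene. Words of 100 nucleotides, the read length implied by the authors' effective lengths, were unique to the gene in 7 of the 8 members when compared on both strands with all GENCODE M21 transcripts, including the paralogs. The same 7 genes had counts that were whole to the 2 decimals deposited. Hand2 was the exception, with 11.7% of its words shared with transcripts now placed in Hand2os1, the antisense gene also known as Upperhand, on the opposite strand.

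Hand2os1 runs from 57281117 to 57324233 on chromosome 8, minus strand, and was more abundant than Hand2 itself. It stood at 26.9 TPM in replicate 1 (390 counts) and 19.4 TPM in replicate 2 (271 counts), 8.33-fold above Hand2 in replicate 1 and 10.01-fold in replicate 2. In counts, which depend on length, Hand2os1 held 2.30 times those of Hand2 in replicate 1 and 2.54 times in replicate 2. The authors' annotation gave this gene 8 transcript models, none of which overlaps an exon of Hand2 at its M21 position, whereas M21 lists 37. Like Hand2, Hand2os1 was lower in replicate 2 (log2 ratio -0.58, interval -0.81 to -0.36), at 1.496-fold just inside the 1.5-fold limit.

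Another pair of antisense transcripts does lie within Hand2. In the authors' tables they form the gene ENSMUSG00000100348, from 57320987 to 57324233, and all 443 of their exonic bases fall in Hand2 exons. This gene was given 6.07 counts in replicate 1 and 7.48 in replicate 2, and with those of Hand2 they summed to 176 and 114 counts, both whole. The antisense gene held 3.45% of that sum in replicate 1 and 6.56% in replicate 2. The parts were not whole in either library, so reads were shared between these genes on opposite strands. The strand setting of the counting is not given, and the shared reads cannot be told apart here. With the antisense counts added, the log2 ratio of Hand2 was -0.68.

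Pou3f3 also has a divergent neighbour above its own level. Pantr1, a long noncoding RNA gene on the minus strand of chromosome 1 whose start lies 926 nucleotides from that of Pou3f3, stood at 22.2 TPM in replicate 1 (250 counts) and 20.0 TPM in replicate 2 (235 counts). That was 7.02-fold above Pou3f3 in replicate 1 and 5.71-fold in replicate 2, although Pantr1 had fewer counts, since its models averaged 556 nucleotides. Its ratio between libraries (-0.15, interval -0.41 to 0.11) held 0. AC122898.1, a gene on the strand of Pou3f3 that has it inside an intron, had 9 counts in replicate 1 and 12 in replicate 2, 0.340 ± 0.0566 TPM (SD, n = 2).

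**Figure D5:**
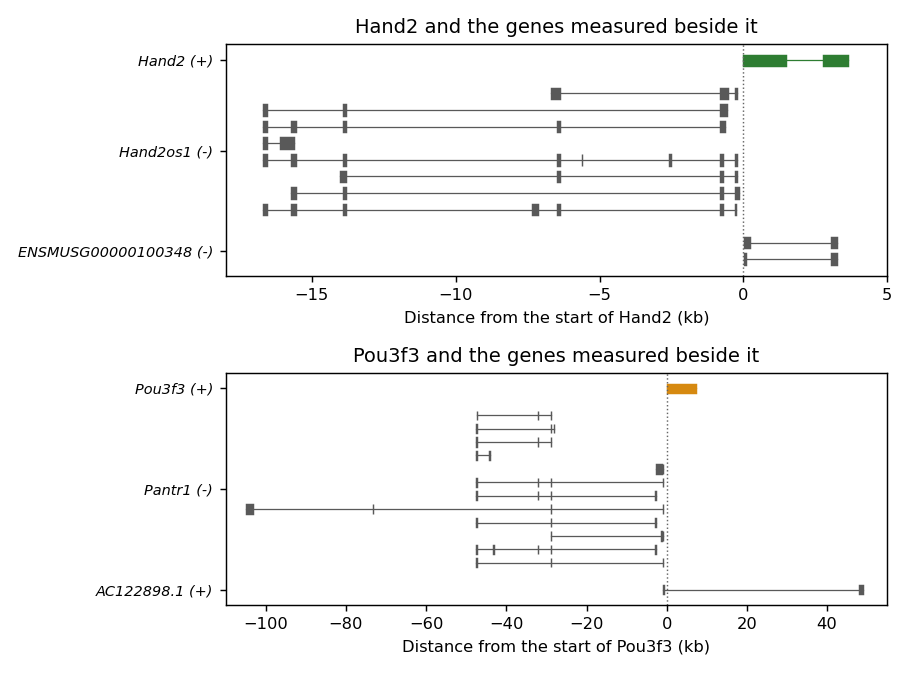
Transcript models of the authors' tables around Hand2 (top) and Pou3f3 (bottom), drawn at their GENCODE M21 positions as distance from the start of the member in kb, with exons as boxes, introns as lines and the strand in brackets. The 8 Hand2os1 models lie to the left of the start of Hand2 and the 2 models of ENSMUSG00000100348 lie inside Hand2; Pantr1 points away from Pou3f3, 926 nucleotides from its start.

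The remaining neighbours gave no value to set beside a member. The gene 1700022H16Rik, opposite a longer M21 model of Osr1, had no count in either library, which allows up to 0.323 TPM in replicate 1 and 0.310 TPM in replicate 2 at 3 counts. Gm31497, antisense in Barx2, and Gm10000, which starts 1 nucleotide from Gsc on the other strand, are in M21 and not in the annotation the authors used. Osr2, Barx1 and Hand1 had no gene that overlaps them or starts within 5 kb of their start.

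The RefSeq promoter table (GRCm38.p6) held windows of 300 bases, from 250 bases before the start of the gene to 50 after it, for 4 of the 8 members, and these are shown because they hold the start regions from which Hand2, Pou3f3 and Gsc face a noncoding gene, with Barx1, which has no such neighbour, beside them. Both strands were searched, and overlapping matches were each counted. Capitals mark matches to CANNTG, the E-box that bHLH factors such as Hand2 bind, and to TAAT on either strand, the core bound by homeobox factors.
Hand2, chr8:57320733-57321032, plus strand: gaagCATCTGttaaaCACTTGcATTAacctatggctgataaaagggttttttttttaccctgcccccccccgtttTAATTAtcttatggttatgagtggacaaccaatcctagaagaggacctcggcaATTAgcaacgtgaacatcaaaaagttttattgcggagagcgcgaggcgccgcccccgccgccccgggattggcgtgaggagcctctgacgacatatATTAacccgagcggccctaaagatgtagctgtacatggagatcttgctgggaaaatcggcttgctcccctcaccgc
Pou3f3, chr1:42695518-42695817, plus strand: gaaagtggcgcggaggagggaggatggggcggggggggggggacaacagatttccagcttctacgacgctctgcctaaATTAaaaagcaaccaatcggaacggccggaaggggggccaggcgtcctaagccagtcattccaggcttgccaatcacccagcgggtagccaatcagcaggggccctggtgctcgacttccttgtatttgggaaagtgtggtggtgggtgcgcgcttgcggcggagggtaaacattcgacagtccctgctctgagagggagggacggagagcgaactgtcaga
Gsc, chr12:104473187-104473486, minus strand: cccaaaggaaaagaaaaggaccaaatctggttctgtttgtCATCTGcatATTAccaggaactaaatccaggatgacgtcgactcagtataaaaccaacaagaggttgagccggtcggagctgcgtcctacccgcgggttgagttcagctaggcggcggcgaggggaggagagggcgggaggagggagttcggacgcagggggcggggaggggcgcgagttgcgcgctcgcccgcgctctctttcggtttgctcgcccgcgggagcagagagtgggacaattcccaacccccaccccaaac
Barx1, chr13:48662786-48663085, plus strand: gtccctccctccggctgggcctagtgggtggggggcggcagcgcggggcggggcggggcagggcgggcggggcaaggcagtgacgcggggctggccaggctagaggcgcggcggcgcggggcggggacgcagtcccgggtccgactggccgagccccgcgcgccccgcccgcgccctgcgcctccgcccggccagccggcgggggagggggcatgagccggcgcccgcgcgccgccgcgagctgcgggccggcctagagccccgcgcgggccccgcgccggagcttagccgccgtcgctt

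The Hand2 window also holds starts of its antisense gene: 5 of the 8 Hand2os1 models of the tables start in it, 153 to 248 nucleotides before the start of Hand2 and on the opposite strand. It was the least GC-rich of the 4, at 50.3% with 17 CpG, and held 2 CANNTG and 5 TAAT matches, of which 1 pair overlaps as TAATTA. The Pou3f3 window held no CANNTG and 1 TAAT, and the Gsc window 1 of each and 1 TATAAA. The Barx1 window, at 84.7% GC with 50 CpG, held neither CANNTG nor TAAT and 8 matches to GGGCGG, some of which overlap others. Of all 32851 windows in the table, 72.3% held CANNTG, 58% TAAT, 13.6% TATAAA and 35.7% GGGCGG on either strand, and the medians were 52.7% GC and 7 CpG. A match or its absence describes these letters only. The RefSeq start differs from the GENCODE start by 94 nucleotides for Gsc and 38 for Barx1.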

How the data were processed

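Total RNA of 2 pools of facial prominence was sequenced. Per the labels, 10 ng of RNA over 200 nucleotides entered each library, and replicate numbers are biological. The authors used assembly mm10 with annotation M4, per notes deposited beside the tables. The sources used here do not give the aligner, the counting program or the strand setting. The authors deposited an expected count, TPM and FPKM per gene and per transcript, each transcript's percent of its gene as deposited, and credibility bounds of TPM, recorded here as a score as deposited. Deposited TPM summed over genes, 97 spike-in and 26248 numbered sequences, so spike-ins (2.91% of counts in replicate 1, 4.59% in replicate 2) lower the TPM of genes. Depth was 37128010 and 38543623 expected counts. On a transcript of 1 kb, 1 count was worth 0.0406 TPM (replicate 1) or 0.0389 TPM (replicate 2).

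Genes were named and placed by GENCODE M21 (GRCm38), which named 42462 of 43346 identifiers. A gene was detected at 1 TPM in both libraries, and SDs are over n = 2. Ratios are replicate 2 over replicate 1 of expected counts rounded to whole numbers, scaled with TMM factors of 0.989 and 1.01 (edgeR 4.0.16, R 4.3.3), with a prior count of 2, where a gene reached 10 counts in each library. Exact binomial (Clopper-Pearson) 95% intervals and floors of 3 counts cover counting error only. DESeq2 1.42.0 gave other size factors. Other steps used Python 3.11.15 with pandas 2.3.3, numpy 2.4.6, matplotlib 3.10.9 and scipy 1.17.1. The ratio step was tested on simulated data. Members, lists and alternatives were chosen with earlier results of these data known. Named were the 8 members, transcripts at 5% or more of a gene, genes that overlap a member or start within 5 kb, every gene of the endothelin and Dlx, palate, bHLH partner and Id lists, and the 3 highest of each other list, except for a gene that is not reported here. Genes named beside these were chosen after their values were seen. A planned comparison of protein sequences was not run.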

Additional observations from a re-analysis of the deposited data

How the results depend on the processing

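Several results moved with the settings. The count of 7 detected members was the same with TPM over mouse genes alone, posterior mean TPM, FPKM and either library alone. The count of 2 members past 1.5-fold between replicates was kept by DESeq2 size factors, a prior count of 0.5, TPM ratios and Hand2 counts joined with its antisense gene. It was 1 with library totals without TMM (added after seeing the data), where Barx2 had a log2 ratio of -0.56. It was 4 with spike-in scaling, which moved the median of all genes by -0.65. That median is itself past 1.5-fold, a log2 ratio of 0.585 in size, so most tested genes were past it too. The share of all genes past 1.5-fold is not given here for either scaling. Against the spike-in median Hand2 stood at -0.71, Barx2 at -0.59 and Osr2 at 0.26. With TMM, genes past 1.5-fold numbered 1664, or 9.08% of those tested. They numbered 6418 with 1 count in either library as the only filter, and 582 were past 2-fold. The median percentile of the members was 29.2 among detected and 53.7 among all coding genes. The mean log2 ratio of Hand2 over Hand1, 2.26, was 1.21 with a pseudocount of 1 TPM. The share of the longest Hand1 transcript, 71.6%, was 42.4% by posterior means. Of 115 listed genes 92 were detected, within 1.5 times at 0.5 or 5 TPM. No paired analysis was possible because there is 1 group. Depth limits Hand1 most, at 22 and 25 counts.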
